A study of Mus musculus with 7 samples.

Results

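Imprinted genes are transcribed mainly from a single parental allele, and many of them set the growth of the mammalian embryo. Paternally expressed members such as Igf2 usually favour growth, and maternally expressed members such as H19, Igf2r, Cdkn1c and Grb10 usually restrain it. In the mouse, Plagl1, H19, Igf2, Dlk1 and Cdkn1c have been described as parts of a network of imprinted genes that are expressed together in growing embryonic tissues and are switched down after birth. Described here are 10 such genes, H19, Igf2, Igf2r, Dlk1, Meg3, Peg3, Mest, Cdkn1c, Grb10 and Plagl1, which were chosen by name from the 48526 genes of the deposited table. All 10 were expressed well above the filter on low values and were among the 15599 genes tested.

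Mouse embryos were taken at embryonic day 8.5, when the heart tube loops, their cardiac region was dissected out, and 1 poly(A) RNA library was sequenced per embryo. The 3 mutant embryos were Hoxb1 Cre/+ and Nodal flox/nul, so that Nodal, the secreted signal of the left side, is deleted where the Hoxb1 locus drives Cre. The 4 control embryos were Hoxb1 +/+ and Nodal flox/+. All 7 embryos had a mixed genetic background and carried a conditional Nodal allele. Cre and the altered Hoxb1 allele were present in the mutants alone, so their part in a difference cannot be told apart from that of Nodal. The mutants also carried a nul Nodal allele where the controls carried +, a difference not limited to the cells with Cre. Its part cannot be told apart from that of the deletion by Cre. Mutant 1 and controls 2 and 4 were male, and mutants 2 and 3 and controls 1 and 3 were female. The file header puts the males at substage E8.5f and the females at E8.5e, so that sex and substage cannot be told apart either.

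Values are read counts divided by the authors' size factor of each library, called normalised read counts below. They sum the reads of both parental alleles, so they say nothing on which allele was read. The libraries held between 7155994 and 15122057 recovered reads, and the fewest reads behind any value of the 10 genes were 903, for Plagl1 in control 3. Nodal itself had no read in the 3 mutants, while controls 1 to 4 stood at 7.77, 2.75, 6.71 and 0 normalised reads, so it does not set control 4 apart. Lefty2, a direct target of Nodal, checks the labels better and had normalised read counts of 4.88, 1.52 and 3.62 in mutants 1 to 3, against 619, 364, 343 and 371 in controls 1 to 4. All 24 heart muscle markers listed had reads in every library.

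Several of the 10 genes are also hosts of microRNAs, which are shown because the host transcripts are what this assay measured. H19 and Meg3 are long noncoding RNAs, and miR-675 lies in an exon of H19. The mature sequences of RefSeq (GRCm38.p6) follow 5′ to 3′, with the seed, bases 2 to 8, in capitals. Among the 9 mature microRNAs of 4 hosts there were 9 different seeds, so none shares its seed with another.
mmu-miR-675-5p, in H19: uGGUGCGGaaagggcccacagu
mmu-miR-675-3p, in H19: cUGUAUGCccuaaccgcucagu
mmu-miR-483-5p, in Igf2: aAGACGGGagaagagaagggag
mmu-miR-483-3p, in Igf2: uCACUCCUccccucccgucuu
mmu-miR-1906, in Meg3: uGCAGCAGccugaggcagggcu
mmu-miR-770-5p, in Meg3: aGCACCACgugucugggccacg
mmu-miR-770-3p, in Meg3: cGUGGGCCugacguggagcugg
mmu-miR-335-5p, in Mest: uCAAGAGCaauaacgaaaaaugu
mmu-miR-335-3p, in Mest: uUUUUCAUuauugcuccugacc
A poly(A) library does not measure mature microRNAs. The annotated Mir675 gene was listed at 0 in all 7 libraries, and Mir483 stood at normalised read counts of 3.91, 8.37 and 6.33 in mutants 1 to 3, against 7.77, 4.58, 2.24 and 9.82 in controls 1 to 4.

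Plagl1 encodes a zinc finger factor, also called ZAC1, for which the motif GGGGCCCC has been described as a binding sequence. The motif is its own reverse complement, so both strands read alike, and it was searched from 250 bases before to 50 bases after each annotated start. RefSeq windows were at hand for 8 of the 10 genes, 15 windows in all, and 1 of them held the motif, that of Peg3, itself an imprinted zinc finger gene. Of all 32851 promoter windows of the same length, 1.08% held it. The Peg3 window is shown with the motif in capitals, on the minus strand at chr7:6730370-6730669 of GRCm38.p6.
Peg3 promoter: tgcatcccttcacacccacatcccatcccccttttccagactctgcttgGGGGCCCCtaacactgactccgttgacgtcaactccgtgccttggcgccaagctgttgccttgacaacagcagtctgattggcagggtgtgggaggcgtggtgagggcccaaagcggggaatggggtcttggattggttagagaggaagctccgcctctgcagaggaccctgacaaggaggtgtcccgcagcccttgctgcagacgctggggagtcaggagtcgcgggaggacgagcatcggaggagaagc
The window of Plagl1 itself, on the plus strand at chr10:13090582-13090881, is shown because Plagl1 varied most of the 10 genes, and its CpG dinucleotides, the sites that imprinting methylates, are in capitals.
Plagl1 promoter: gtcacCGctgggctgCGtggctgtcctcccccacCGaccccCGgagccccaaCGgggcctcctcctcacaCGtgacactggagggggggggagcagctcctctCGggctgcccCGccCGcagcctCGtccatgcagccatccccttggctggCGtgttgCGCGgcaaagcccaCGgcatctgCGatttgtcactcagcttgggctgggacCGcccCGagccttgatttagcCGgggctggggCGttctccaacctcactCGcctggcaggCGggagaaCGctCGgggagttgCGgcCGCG
It holds 26 CpG dinucleotides, more than 83.1% of all promoter windows, whose median is 7. The windows of the other genes held between 1 and 45, the most in a window of Grb10. Methylation was not measured in these embryos.

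Igf2 and H19 were, per kilobase of exon, the leading members. Igf2, insulin-like growth factor 2, is the main fetal growth factor of its family (chr7:142650766-142666816, GRCm38, minus strand), and H19 (chr7:142575529-142578143, minus strand) lies downstream of it and shares its enhancers. Igf2 had normalised read counts of 49489, 39128 and 38556 in mutants 1 to 3, against 47825, 53605, 31508 and 61014 in controls 1 to 4. Both the lowest and the highest value belonged to controls, and the mutants lay between them. The means were 42391 ± 6153 in mutants and 48488 ± 12541 in controls (SD, n = 3 and 4). Annotated exons of Igf2 share 62.8% of their length with Gm49394 on the same strand, a gene that the deposited table does not list. They share 98 bases with Igf2os on the other strand. Reads of overlapping genes may be split or left out. For H19 the counts were 44012.5, 36998 and 33571 in mutants 1 to 3, against 47197, 48792, 31090.1 and 54184 in controls 1 to 4. The order of the embryos was nearly that of Igf2, with control 4 at the top and control 3 at the bottom. The log2 fold change, mutant minus control, was -0.16 (SE 0.21) for Igf2 and -0.23 (SE 0.19) for H19.

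Igf2r, the receptor that binds Igf2 and removes it to the lysosome (chr17:12682406-12769664, minus strand), had counts of 13137, 10546 and 10515 in mutants 1 to 3, against 13079.7, 15428, 7994 and 14713 in controls 1 to 4. Mutants 2 and 3 were nearly equal, and only control 3 lay below them. Its log2 fold change was -0.13 (SE 0.22). Airn, the antisense RNA that silences the paternal Igf2r allele in the mouse, shares no annotated exon base with Igf2r and had counts of 484, 314 and 424 in mutants 1 to 3, against 505, 526, 384 and 620 in controls 1 to 4. Grb10 encodes an adaptor that dampens insulin and growth factor receptor signalling (chr11:11930508-12038683, minus strand). It had counts of 20616, 18203 and 18248 in mutants 1 to 3, against 20094, 21396, 17476 and 21240.3 in controls 1 to 4. These values spanned the narrowest range of the 10 genes, 1.22-fold from control 3 to control 2. The log2 fold change of Grb10 was -0.07 (SE 0.09), with a 95% interval of -0.28 to 0.13.

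Plagl1 and Cdkn1c spanned the widest ranges. Plagl1 (chr10:13060504-13131694, plus strand) had counts of 1798, 1634 and 1276 in mutants 1 to 3, against 2687, 2787, 1009.9 and 2343 in controls 1 to 4. All 3 mutants lay below controls 1, 2 and 4 and above control 3. Its means were 1569.6 ± 267 in mutants and 2207 ± 820.3 in controls (SD, n = 3 and 4), and the log2 fold change was -0.40 (SE 0.34), with a 95% interval of -1.18 to 0.38. Cdkn1c, the cyclin-dependent kinase inhibitor p57 that halts division in differentiating cells (chr7:143458339-143461050, minus strand), had counts of 5041, 3580.2 and 3574 in mutants 1 to 3, against 5570.2, 5663, 2664 and 6364 in controls 1 to 4. Again the mutants lay below all controls but control 3. The log2 fold change of Cdkn1c was -0.26 (SE 0.29). Gm44732, antisense to 30.7% of its exon length, never exceeded a normalised read count of 1.12.

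Dlk1 and Meg3 share an imprinted cluster and are read from opposite alleles. Dlk1, a transmembrane ligand-like protein of the Notch family found on progenitor cells (chr12:109452823-109463336, plus strand), had counts of 2524, 2252 and 1620.0 in mutants 1 to 3, against 2922, 3339.9, 1410.3 and 2141 in controls 1 to 4. Here mutants 1 and 2 lay above control 4 as well as control 3. Meg3 (chr12:109541001-109571726, plus strand) had counts of 4286, 4600.1 and 4300.2 in mutants 1 to 3, against 5685, 5403, 4064 and 5069.6 in controls 1 to 4. The mutants were close together, at 4395 ± 177 (SD, n = 3), while the controls had 5055 ± 707 (SD, n = 4). Log2 fold changes were -0.15 (SE 0.29) for Dlk1 and -0.19 (SE 0.11) for Meg3, the smallest unadjusted p of the 10 genes at 0.120.

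Mest, a hydrolase-like protein of mesoderm (chr6:30723547-30748465, plus strand), had counts of 13632, 11133 and 11263 in mutants 1 to 3, against 14059, 15688, 10921 and 14221 in controls 1 to 4. Mutant 1 stood just below the 3 higher controls and mutants 2 and 3 stood close to control 3. Copg2 overlaps 23.1% of the exon length of Mest on the other strand, and its counts ran from 718 to 824 in mutants and from 718 to 828 in controls. Peg3, which encodes a zinc finger protein (chr7:6703892-6730431, minus strand), had counts of 19986, 21060.4 and 16606 in mutants 1 to 3, against 20837, 27736, 14972 and 24031 in controls 1 to 4. Mutants 1 and 2 lay beside control 1, and mutant 3 was close to control 3. Their log2 fold changes were -0.19 (SE 0.13) for Mest and -0.16 (SE 0.20) for Peg3.

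**Figure D1:**
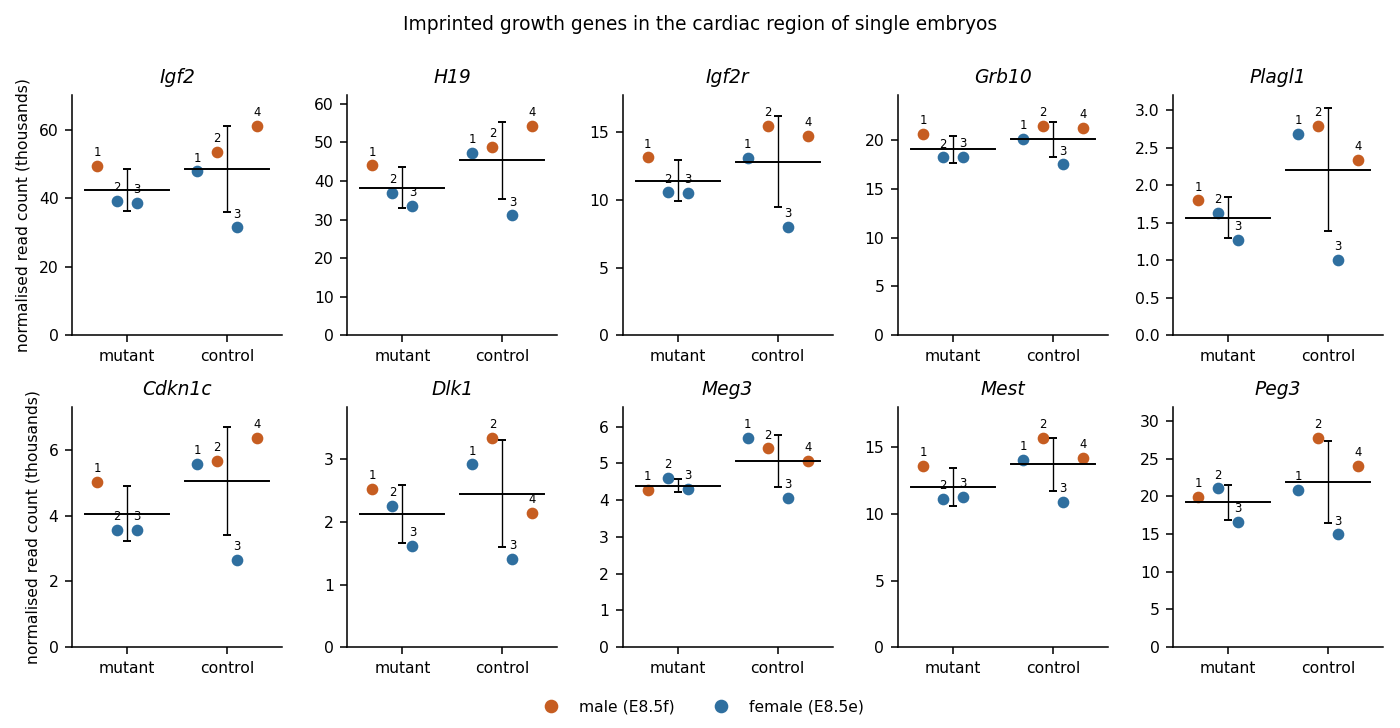
Normalised read count divided by 1000 (y axis, from 0) of each of the 10 genes in the 3 mutant and 4 control embryos (x axis), with the embryo's number, horizontal lines at group means and bars of 1 SD. Control 3 is the lowest point in all 10 panels, and the groups overlap in each.

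None of the 10 genes passed the test between mutants and controls. The limma fit over all genes called 0 of 10 at an adjusted p under 0.05, and adjusted p ran from 0.967 to 0.971. None had an unadjusted limma p under 0.05 either, against 598 of all 15599 genes tested. On the recovered reads, edgeR, DESeq2 and limma-voom called 0 of 10 as well. Over all genes tested, the same limma fit called 2, Lefty2 and Atp10d, which is 0.0128%. The direction was nonetheless the same for all 10, whose log2 fold changes were all below 0, against 48.3% of all genes. Their median was -0.17, against 0.01 over all genes. The 10 genes vary together across embryos, so their shared direction does not stand for 10 separate observations. The groups differ in sex, with 1 male of 3 mutants and 2 males of 4 controls. With sex as a term all 10 were still below 0, with a median of -0.12. The log2 fold change was -0.08 for Igf2, -0.05 for Igf2r, -0.09 for Dlk1, -0.10 for Peg3, -0.16 for Cdkn1c and -0.04 for Grb10. H19, Meg3, Mest and Plagl1 lay further below 0 than that median. Mutant and control values overlapped for every member. Over all genes only 2.08% had every mutant below every control, so this overlap does not set the members apart. In bulk tissue, fewer cells of an expressing type and less RNA per cell cannot be told apart. The p-values measure the spread between these embryos.

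The intervals show what sizes of difference the 7 embryos leave possible. For Grb10 the 95% interval of the percent difference, mutant against control, ran from -17.4% to 9.23%. The interval of Meg3 ran from -26.5% to 4.40%. That of Plagl1 ran from -55.8% to 29.7%, the widest on the log2 scale. The authors' deposited table gives ratios of mutant to control means between 0.711 for Plagl1 and 0.949 for Grb10, with p-values between 0.0973 for Meg3 and 0.440 for Dlk1 and an adjusted p of 1 for each. None of the 10 genes is in the authors' deposited table of selected genes. That table holds only a small share of all genes listed, so absence from it does not set the 10 genes apart.

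Control 3 held the lowest value of every one of the 10 genes, and every highest value also belonged to a control. Control 2 was highest for 6 genes, control 4 for 3 and control 1 for 1. The 10 genes together took 1.49%, 1.30% and 1.22% of the reads in mutants 1 to 3, against 1.58%, 1.72%, 1.10% and 1.75% in controls 1 to 4. Without control 3 the limma fit called 10 genes in all and again 0 members, but 8 members then had an unadjusted p under 0.05, as did 13.4% of all genes, and the median of their log2 fold changes was -0.35. The embryo left out there is the one that is lowest for all 10 genes, so this fit is no separate support. For 5 members, H19, Meg3, Mest, Cdkn1c and Plagl1, every mutant then lay below every remaining control. That ordering held for 8.57% of the genes tested without control 3. In that fit Plagl1 had a log2 fold change of -0.74 and Cdkn1c one of -0.55, with limma adjusted p-values of 0.151 and 0.196.

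Within a sex the picture differed in part. Mutant 1, the only male mutant, lay below both male controls for 9 of 10 genes, the exception being Dlk1, against 34.0% of all genes tested. Between the female embryos, both mutants lay below control 1 and above control 3 for 9 of 10 genes, the exception being Peg3 in mutant 2, against 16.7% of all genes tested. Since the 10 genes vary together across embryos, neither count stands for 10 separate observations. In females alone the limma log2 fold changes were below 0 for 7 members and above 0 for 3 (below 0 for 44.7% of all genes), with a median of -0.10 and 0 genes called in all (138 at an unadjusted p under 0.05). In males alone, where the lone mutant is assumed to vary as the controls do, all 10 were below 0, against 49.0% of all genes, with a median of -0.22. That fit rests on a single mutant, so only its fold changes are given. The difference between the sexes was tested as an interaction in limma, which called 0 of 15599 genes (390 at an unadjusted p under 0.05) and had 0 members under 0.05.

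**Figure D2:**
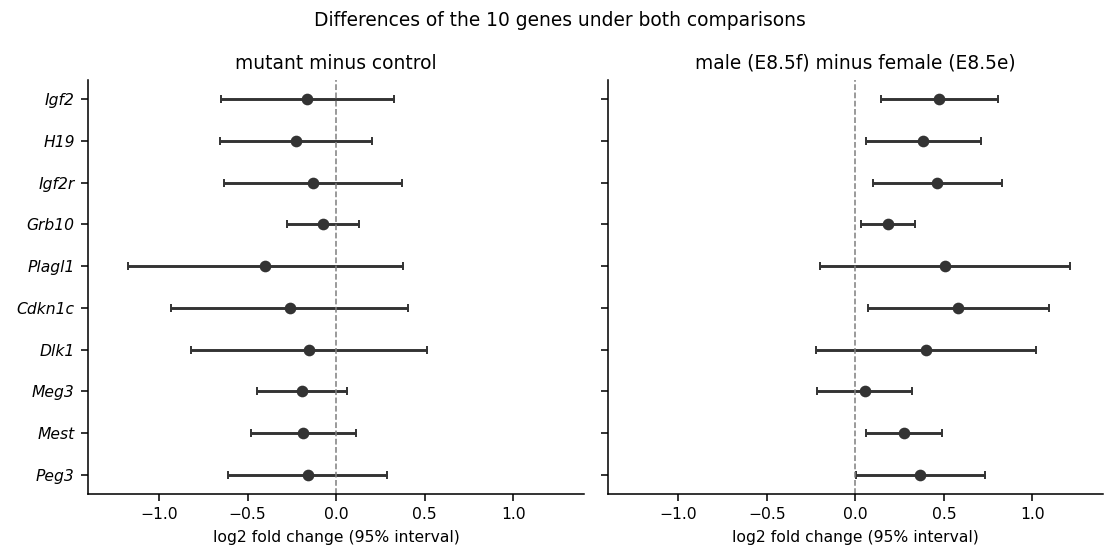
Log2 fold change with its 95% interval (x axis) of each of the 10 genes (y axis) in the limma fits, for mutant minus control on the left and male (E8.5f) minus female (E8.5e) on the right. On the left every point is below 0 and every interval spans 0, and on the right every point is above 0 and 7 of 10 intervals lie above 0.

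A further comparison follows the sex labels, which carry the substage with them. With genotype as a term in the limma fit, all 10 log2 fold changes of male minus female embryos were above 0, against 51.6% of all genes. Their median was 0.39, against 0.01 over all genes. Cdkn1c had the largest at 0.58 (SE 0.22), Plagl1 had 0.51 (SE 0.30), Igf2 0.48 (SE 0.14) and Igf2r 0.46 (SE 0.16). Meg3 had the smallest, 0.05 (SE 0.11). The adjusted p ran from 0.403 to 0.906, so that 0 of 10 members were called by limma, although 7 of 10 had an unadjusted p under 0.05, as did 10.5% of all genes. By edgeR 6, by DESeq2 7 and by limma-voom 7 had an unadjusted p under 0.05, with 0 called by each. Over all genes limma called 7, which is 0.0449%, and DESeq2 called 177. The 7 were Xist, the Y-linked Ddx3y, Eif2s3y, Kdm5d and Uty, the neural gene Msx3 and the predicted gene Gm29650. This comparison uses the same 7 embryos as that of the genotypes, so the 2 sets of values are not independent. Nor do the counts of members stand for separate observations, since the 10 genes vary together across embryos.

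For 3 members every male lay above every female, as was the case for 5.64% of all genes. Igf2 ranged from 49489 to 61014 in males and from 31508 to 47825 in females. Igf2r ranged from 13137 to 15428 in males and from 7994 to 13079.7 in females. Grb10 ranged from 20616 to 21396 in males and from 17476 to 20094 in females. In each of these the lowest male was mutant 1 and the highest female was control 1. Without control 1 the limma fit called 680 of 15417 genes and 5 members. These were H19, Igf2, Igf2r, Mest and Cdkn1c, with log2 fold changes between 0.37 and 0.83. Control 1 is the highest female for each of these 5, so leaving it out widens the difference and this fit is no separate support. Without control 3 the median over the 10 genes was 0.19 and Meg3 stood at -0.09.

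Markers of heart muscle and of tissues beside the heart also differed between embryos. Summed over 24 heart muscle markers, normalised read counts were 141378, 75371 and 93497 in mutants 1 to 3, against 136865, 145692, 63689 and 181400 in controls 1 to 4. All 3 males, at 141378 to 181400, lay above all 4 females. The 22 neural tube markers summed to 3807, 5051 and 6612 in mutants 1 to 3, against 3288, 2464, 7906 and 2534 in controls 1 to 4. Of these markers 14 had reads in every library, while Olig2, Dbx1, Dbx2, Neurog1, Neurog2, Nkx2-2, Zic1 and Fabp7 were at 0 in at least 1 library. Control 3, the lowest embryo for the 10 imprinted genes, thus had the lowest heart muscle sum and the highest neural tube sum. Limma called none of these markers in either comparison. Of the heart muscle markers, 24 of 24 had a log2 fold change below 0 in mutants (2 with an unadjusted p under 0.05) and 24 of 24 one above 0 in males (19 under 0.05). Of the 17 neural tube markers tested, 16 were above 0 in mutants (0 under 0.05) and 14 below 0 in males (13 under 0.05). DESeq2 called 5 heart muscle and 6 neural tube markers between the sexes, and edgeR and limma-voom called none.

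When the mean log2 level of the neural tube markers was entered as a term, the log2 fold changes of the imprinted genes between genotypes lay between -0.11 (Meg3) and 0.14 (Dlk1). In that limma fit 3 members were below 0 and 7 above 0, with a median of 0.04. For male minus female, all 10 were then below 0, with a median of -0.23. The neural tube level itself ran from 3.23 to 4.19 in males and from 4.42 to 6.53 in females. Sex and this term are thus poorly separated in 7 embryos, and no conclusion is drawn from the change of sign. The yolk sac endoderm markers, of which 19 of 20 had reads in every library with Apoc2 at 0 in at least 1, summed to 1845, 20156 and 7351 in mutants 1 to 3, against 19666, 12067, 7862 and 6107 in controls 1 to 4. All 19 tested were below 0 in mutants (0 with an unadjusted limma p under 0.05) and below 0 in males (11 under 0.05). With their level as a term, all 10 members stayed below 0 in mutants, with a median of -0.21, and above 0 in males, with a median of 0.68. Paraxial mesoderm markers (17, with 5 at 0 in at least 1 library) summed to between 2789 and 6547 in mutants and between 1580.0 and 5533 in controls, and of 12 tested 10 were above 0 in mutants and 10 below 0 in males. Surface ectoderm markers (18, with Krt14 at 0 in at least 1 library) summed to between 12335 and 16798 in mutants and between 11233 and 18497 in controls, and of 17 tested 12 were above 0 in mutants and 11 above 0 in males. Endothelial markers (16, all with reads in every library) summed to between 9233 and 9683 in mutants and between 8452 and 12813 in controls. Of these, 15 of 16 were below 0 in mutants (median -0.20) and 12 of 16 above 0 in males (median 0.08). The part of heart muscle, paraxial mesoderm, surface ectoderm and endothelium in the results was not tested.

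**Figure D3:**
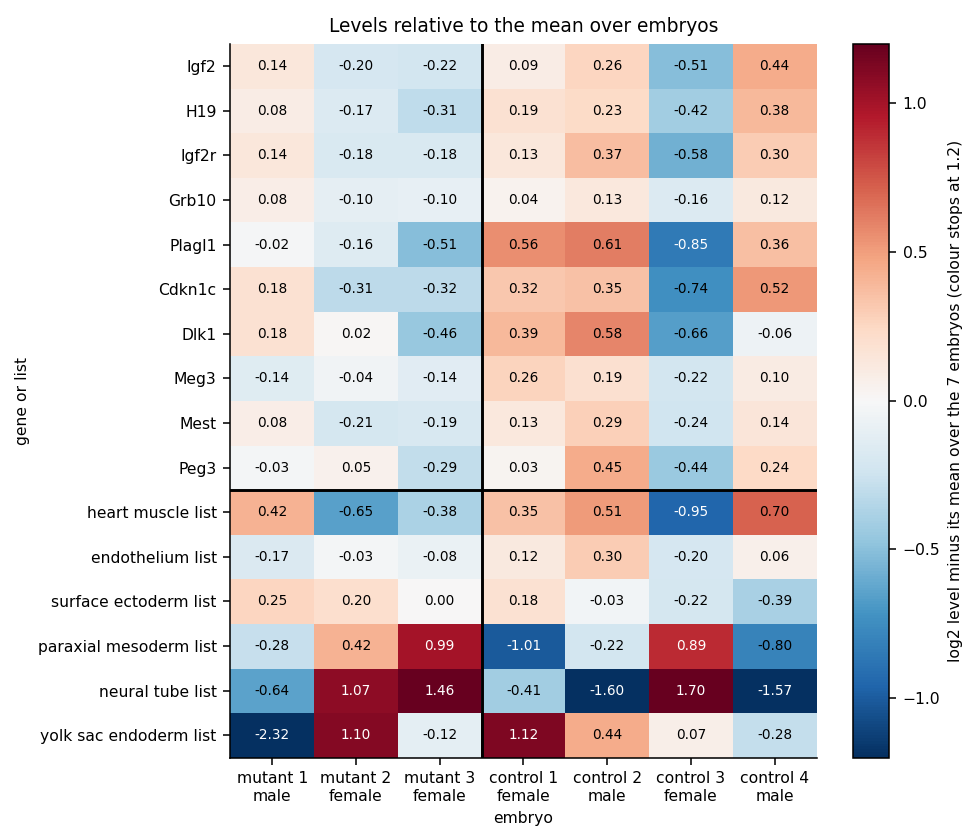
Log2 level minus its mean over the 7 embryos (colour, and the number in each cell) of the 10 imprinted genes and of the mean of each tissue list (rows), by embryo (columns, mutants left of controls). Control 3 and mutants 2 and 3 are at or below the mean for most imprinted genes and for heart muscle, and above it for the neural tube list.

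Across embryos the 10 genes varied together. All 45 pairs had a positive Pearson r of log2 values over the 7 embryos, from 0.68 for Meg3 with Grb10 to 0.98 for H19 with Cdkn1c, with a median of 0.89. The points share embryo, library and dissection, so r describes these libraries. Other genes did the same: of 11082 other genes with a mean normalised read count of at least 50, 570, which is 5.14%, had an r of at least 0.9 with the members' mean. The SD of log2 values over the 7 embryos was 0.55 for Plagl1, 0.46 for Cdkn1c and 0.44 for Dlk1, against 0.12 for Grb10. The median of 3031 genes with a mean of at least 1000 was 0.10, and between 65.7% (for Grb10) and 97.9% (for Plagl1) of those genes had a smaller SD than the member. From the lowest to the highest embryo the range was 2.76-fold for Plagl1 and 2.39-fold for Cdkn1c.

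The genes closest to the 3 most variable members were taken by Pearson r of log2 values over the 7 embryos. For Plagl1 they were Bmp4, a growth factor of the heart-forming region, Sec24d, a coat protein of secretory vesicles, and Pcdh7, a protocadherin, each with an r above 0.99. Bmp4 had counts of 587, 556 and 476 in mutants 1 to 3, against 711, 716, 404 and 661 in controls 1 to 4. Cdkn1c was closest to Csrp1, a cytoskeletal LIM protein, Pkp2, the desmosomal plakophilin of heart muscle, and Tdrd12. Pkp2 had counts of 1202, 948 and 962 in mutants 1 to 3, against 1361, 1349.5, 809 and 1458 in controls 1 to 4. Dlk1 was closest to App, S1pr2 and Pld3, with r between 0.98 and 0.99.

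Levels of different genes were compared per kilobase of annotated exon. In normalised reads per kilobase, H19 had a mean of 15526 ± 2164 in mutants and 18421 ± 4042 in controls, and Igf2 one of 7407 ± 1075 in mutants and 8472 ± 2191 in controls (SD, n = 3 and 4). By the median of 7 embryos the order then ran through Mest (3456), Cdkn1c (2472), Grb10 (2211), Peg3 (1564), Igf2r (1405), Dlk1 (398) and Meg3 (254) to Plagl1 (230.0). Neighbours in this order did not overlap over the 7 embryos at 3 steps, from H19 to Igf2, from Igf2 to Mest and from Igf2r to Dlk1, and overlapped at the others. Among the 15599 genes tested, H19 ranked 5, Igf2 21, Mest 87 and Cdkn1c 140, while Dlk1, Meg3 and Plagl1 ranked 1603, 2687 and 2970. With the longest annotated transcript as the length, Cdkn1c and Grb10 changed places, and so did Meg3 and Plagl1.

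**Figure D4:**
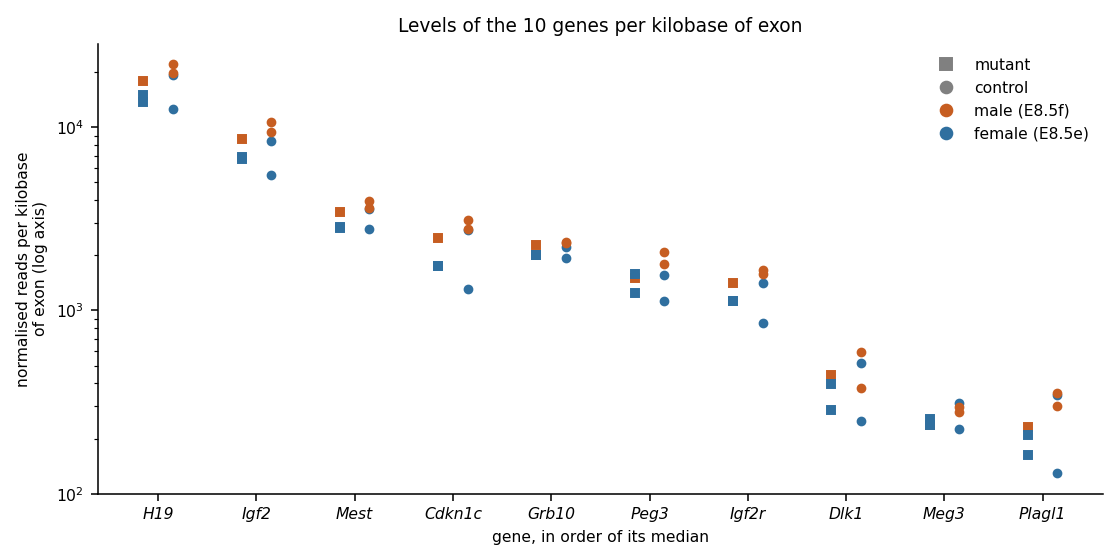
Normalised reads per kilobase of exon (log axis) of the 10 genes in order of their median (x axis), with mutants as squares left of controls as circles, coloured by sex. H19 lies highest, and no embryo of one gene overlaps the next between H19 and Igf2, Igf2 and Mest, and Igf2r and Dlk1.

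Ratios within a library do not depend on scaling, and 3 were taken between genes read from opposite alleles. Igf2 over H19 was, in log2, 0.17, 0.08 and 0.20 in mutants 1 to 3, against 0.02, 0.14, 0.02 and 0.17 in controls 1 to 4. The means were 0.15 ± 0.06 in mutants and 0.09 ± 0.08 in controls (SD), and an exact two-sided permutation test of the difference of 0.06 gave p = 0.286, or 0.857 after Benjamini-Hochberg adjustment over the 3 ratios. The smallest p that 35 arrangements allow is 0.0286. The pair of neighbours Dlk1 over Meg3 gave -0.76, -1.03 and -1.41 in mutants 1 to 3, against -0.96, -0.69, -1.53 and -1.24 in controls 1 to 4, so the groups overlapped over most of their range. Its difference of 0.04 had an exact permutation p of 0.886, also after adjustment. Growth factor over clearance receptor, Igf2 over Igf2r, was 1.91, 1.89 and 1.87 in mutants 1 to 3, against 1.87, 1.80, 1.98 and 2.05 in controls 1 to 4. The mutants were nearly equal and lay inside the range of the controls, with a difference of -0.03 and an exact permutation p of 0.686 (adjusted 0.886). Between male and female embryos the differences were 0.08, 0.33 and 0.02 in the same order, with exact permutation p-values of 0.171, 0.200 and 0.829 (adjusted 0.300, 0.300 and 0.829).

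Other imprinted genes were read from the same fit. Of 24 tested genes reported as maternally expressed, 18 had a log2 fold change below 0 in mutants and 6 above 0, with a median of -0.16. Of 27 reported as paternally expressed, 19 were below 0 and 8 above 0, with a median of -0.11. The limma fit called none of them, nor did edgeR, DESeq2 or limma-voom. In limma 1 gene of each list had an unadjusted p under 0.05, as did 598 of all 15599 genes tested. In the maternal list the smallest p belonged to Tfpi2, an inhibitor of serine proteases with few reads, with counts of 5.86, 9.89 and 9.05 in mutants 1 to 3, against 19.9, 15.6, 10.1 and 29.4 in controls 1 to 4. The fitted difference was -1.02 in log2 (SE 0.40), and limma gave it an adjusted p of 0.967.

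Kcnq1ot1, the noncoding RNA that silences the Cdkn1c cluster in cis on the paternal allele, led the paternal list. It had counts of 1107, 899 and 1114 in mutants 1 to 3, against 1901, 1284, 2946 and 1397 in controls 1 to 4. Every mutant lay below every control, and control 3, lowest for the 10 genes above, was highest here. The log2 fold change was -0.78 (SE 0.26), with a limma p of 0.0179 and an adjusted p of 0.967. In the authors' deposited table of selected genes, which comes from the same embryos and gives unadjusted p-values, it has a ratio of 0.552. From the Dlk1 cluster, Rtl1 had 98.6, 106 and 80.5 in mutants 1 to 3, against 149, 126, 104 and 88.3 in controls 1 to 4. Usp29, the neighbour of Peg3, had 1028, 857 and 748 in mutants 1 to 3, against 1196, 1343, 712 and 1188 in controls 1 to 4.

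Between the sexes, 17 of the 24 other maternally expressed genes had a log2 fold change above 0 in males and 7 below 0 (median 0.10). Of the paternally expressed genes 13 were above and 14 below 0 (median -0.03). Limma called none in either list, nor did the other 3 tools, while 1 maternally and 5 paternally expressed genes had an unadjusted p under 0.05. The signs differed between named genes. The log2 fold change was 0.39 (SE 0.14) for Airn and 0.43 (SE 0.20) for Asb4, a suppressor of cytokine signalling box protein. It was -0.99 (SE 0.29) for Rasgrf1, an exchange factor for Ras, -0.42 (SE 0.13) for Peg13 and -0.81 (SE 0.32) for Cobl, an actin nucleator.

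The genes that carry or tune the Igf2 signal showed no common direction in mutants. Of 25 tested genes of the insulin-like growth factor axis, 13 were above 0 and 12 below 0, with a median of 0.02. Limma and the other 3 tools called none. In limma 2 genes, Grb7 and Igf2bp2, had an unadjusted p under 0.05, as did 598 of all 15599 genes tested. Grb7, an adaptor related to Grb10, had 839, 920.2 and 932 in mutants 1 to 3, against 709, 633, 765 and 607 in controls 1 to 4. All 3 mutants lay above all 4 controls, as was the case for 577 of the 15599 genes tested. Grb7 is also in the authors' deposited table of selected genes, with a ratio of 1.32. That table comes from the same embryos, and the authors' adjusted DESeq2 p of Grb7 is 0.822. In log2 the difference was 0.41 (SE 0.09), and limma gave an adjusted p of 0.967. Igf2bp2, which binds Igf2 mRNA, had 0.16 (SE 0.06). In the comparison of males with females, 15 of the 25 were above 0 (median 0.01). Igfbp5, a secreted binding protein, had 0.37 (SE 0.08) and Grb14, another relative of Grb10, had 0.83 (SE 0.25). Limma called none of the 25 genes, with 5 at an unadjusted p under 0.05, edgeR and limma-voom none, and DESeq2 called Igfbp5.

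Among 16 tested genes that maintain imprints or methylate DNA, 11 were above 0 and 5 below 0 in mutants, with a median of 0.06, and 5 were above 0 and 11 below 0 in males, with a median of -0.05. Limma called none of them in either comparison, nor did the other 3 tools, and 1 gene in each, Uhrf1 in mutants and Dnmt3b in males, had an unadjusted p under 0.05. Uhrf1, which brings the maintenance methyltransferase to replicated DNA, had a log2 fold change of 0.16 (SE 0.06) in mutants. Zfp57, the zinc finger protein that protects imprints, had counts of 580, 511 and 586 in mutants 1 to 3, against 609, 633, 498 and 636 in controls 1 to 4. Dnmt3b, a de novo methyltransferase, had -0.22 (SE 0.07) in males relative to females. Of 7 tested paralogs of the members, 3 were above 0 and 4 below 0 in mutants (median -0.07). In males 5 were above 0 and 2 below 0 (median 0.08). None was called by any of the 4 tools, and 3 genes in mutants and 2 in males had an unadjusted limma p under 0.05. Over all 15599 genes tested, 598 and 1645 did in these comparisons. Plagl2, the relative of Plagl1 that is not imprinted, had 2101, 1871 and 1895 in mutants 1 to 3, against 1511, 1696, 1623 and 1529.6 in controls 1 to 4. Its log2 fold change of 0.30 (SE 0.07) had the opposite sign to that of Plagl1, and every mutant lay above every control. Plagl2 is in the authors' deposited table of selected genes as well, with a ratio of 1.23. From the same embryos, the authors' adjusted DESeq2 p of Plagl2 is 0.844. Cdkn1b, the relative of Cdkn1c, had 482, 483 and 491 in mutants 1 to 3, against 547, 583, 537 and 618 in controls 1 to 4, a log2 fold change of -0.23 (SE 0.07). Neither passed the limma test, with an adjusted p of 0.967 each.

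**Figure D5:**
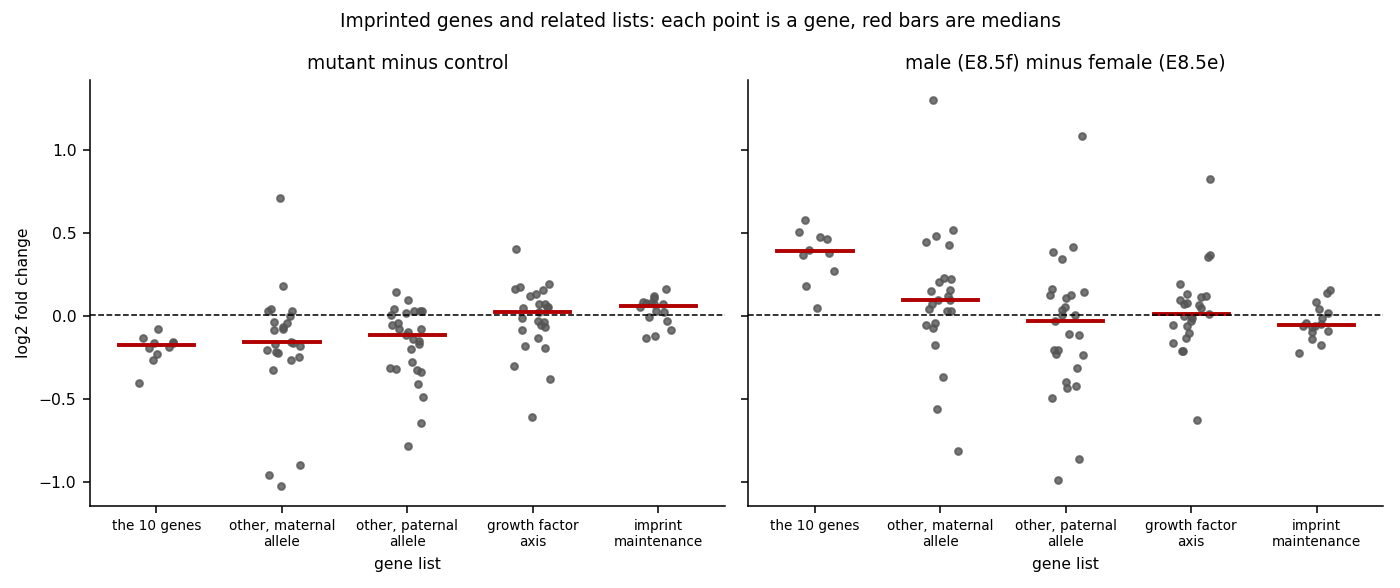
Log2 fold change (y axis) of each tested gene as a point in the 10 genes and 4 related lists (x axis), with red bars at list medians and a dashed line at the median of all genes, for mutant minus control on the left and male (E8.5f) minus female (E8.5e) on the right. The medians of the 10 genes are -0.17 on the left and 0.39 on the right.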

How the data were processed

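The authors deposited a normalised signal, in which read counts had been scaled by a single factor for each library. Every value above 0 came out as a whole number of steps (tolerance 0.1), so whole reads were recovered. Per the file headers, the deposited table adds group means, a ratio of mutant to control, p-values and their adjustment. The submitters' processing notes name HISAT2, featureCounts, Subread, DESeq2, edgeR, limma and the build GRCm38. Whether counting used strand is not stated in these sources. Libraries keep strand, per the labels' protocols.

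Genes with a value of at least 10 in at least 3 libraries were tested with limma 3.58.1 in R 4.3.3 (trended, on log2 of the value + 1), Benjamini-Hochberg adjusted over all 15599 genes, threshold 0.05. The sex comparison had genotype as a term. Fold changes are on that log2 scale. Alternatives were edgeR 4.0.16, DESeq2 1.42.0, limma-voom, other pseudocounts, filters, scalings and covariates, each sex alone, and each embryo left out. Ratios were tested by exact permutation over embryos. The limma script was tested on simulated data. Coordinates and exon lengths come from GENCODE M21. Of the named genes, all 10 members were reported, with up to 4 genes of smallest p per list, annotated genes that overlap or neighbour a member, and the 3 genes most alike for each of the 3 most variable members. Members and lists were chosen with earlier results of these data known. The result of 1 marker list is not reported here.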

Additional observations from a re-analysis of the deposited data

Results flagged for a closer look

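Of 40 groups of embryos screened, 1 held a value far from the others: Mest in female embryos. Mutants 2 and 3 had normalised read counts of 11133 and 11263, against 14059 in control 1 and 10921 in control 3. The gap from control 1 to the nearest embryo was 0.891 of the range of the 4 females, above the critical value of 0.829. Chance flags about 1 in 20 such groups.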

How the results depend on the processing

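No paired analysis was possible because the labels give the embryos no replicate numbers that groups share. In mutants minus controls, 0 of the 10 genes were called under any alternative run. The count over all genes, 2 by limma, was 1 with edgeR, 8 with DESeq2, 0 with limma-voom (578 at an unadjusted p under 0.05), 1 with sex, embryo number range, neural tube level or yolk sac level as a term, 0 in females alone and 21 in males alone; leaving out 1 embryo gave 1 to 10, the 10 without control 3. With neural tube level as a term, the log2 fold change became 0.0032 for H19, 0.10 for Igf2, 0.14 for Igf2r, 0.14 for Dlk1, 0.058 for Peg3, 0.10 for Cdkn1c and 0.023 for Grb10. In females alone it was 0.00084 for Igf2, 0.042 for Igf2r and 0.082 for Peg3. Leaving out 1 embryo, Dlk1 ran from -0.39 to 0.033, turning sign without mutant 3 or control 2, and Plagl1 from -0.74 to -0.25.

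In males minus females the count over all genes, 7 by limma, was 177 with DESeq2 and 13 without the genotype term; leaving out 1 embryo gave 1 to 680 genes and 0 to 5 members, the 680 and the 5 without control 1. With neural tube level as a term the fold change became -0.22 for H19, -0.12 for Igf2, -0.24 for Igf2r, -0.68 for Dlk1, -0.44 for Meg3, -0.20 for Peg3, -0.067 for Mest, -0.44 for Cdkn1c, -0.0082 for Grb10 and -0.93 for Plagl1. The neural tube level does not overlap between the sexes, so that fit separates it poorly from sex. Leaving out 1 embryo, Meg3 ran from -0.086 to 0.16. The ratio of Dlk1 to Meg3 in mutants minus controls ran from -0.11 to 0.21 and that of Igf2 to Igf2r from -0.074 to 0.011. The cause of these shifts was not tested. In all, 208 of 220 fold changes of members between genotypes kept direction and side of the threshold, as did 184 of 200 between sexes. With the longest transcript as length, 5 of the 10 levels per kilobase moved by more than 1 SD. The fewest reads behind any value of the 10 genes were 903. The intervals between genotypes rest on the number of embryos, 3 and 4, and on the spread between them. Their SE ran from 0.09 for Grb10 to 0.34 for Plagl1.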
